A study of Mus musculus with 6 samples.

Results

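The neuronal nicotinic acetylcholine receptor subunits Chrna3, Chrna4, Chrna5, Chrna6, Chrna7, Chrnb2, Chrnb3 and Chrnb4 were followed in ipsilateral and contralateral RGCs (retinal ganglion cells, the output neurons of the retina). A probe set (the group of oligonucleotides whose signals give 1 value) was included where the array annotation names exactly 1 of these symbols. That gave 18 probe sets for 8 genes among 45037 probe sets on the array. The rule itself uses no measured value, although the 8 genes were listed with earlier results of these data known.

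Nicotinic receptors are pentameric, acetylcholine-gated cation channels built from α and β subunits. Most neuronal α subunits need a β partner to form the binding site, whereas α7 can assemble alone into a channel with high calcium permeability. In the retina before vision, cholinergic starburst amacrine cells release acetylcholine, and nicotinic receptors carry the waves of activity that spread among RGCs and help to refine the maps of each eye in the brain. Receptors holding Chrnb2 are known for this role, and mice that lack it have altered waves and a poor separation of the axons of both eyes in the thalamus.

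The 6 arrays came from wild-type C57BL/6J mouse embryos, given as E16 in the sample labels and as E16.5 in the protocol. Ipsilateral RGCs were those labeled in the retina on the same side as a cut optic tract to which tetramethylrhodamine-conjugated dextran was applied for 2 h, and contralateral RGCs were those labeled from the same cut in the opposite retina. Each of 3 rounds of labeling and FACS gave 1 ipsilateral and 1 contralateral sample (n = 3 each) from retinas pooled over 2 litters, with DAPI-stained dead cells left out, and the paired samples of a round were handled together. The study kept rounds in which the transcription factor Zic2 was high in ipsilateral RGCs by qPCR, so the rounds were not taken at random, and a labeled and sorted cell is an RGC only as far as the dye and the gate allow. RNA was amplified as cDNA, and all values below are RMA log2 intensities, on which a difference of 1 is 2-fold. The deposited arrays were not on a common level, since their medians were 5.81, 6.70 and 6.33 in ipsilateral and 5.80, 6.65 and 6.26 in contralateral RGCs of rounds 1 to 3. The rounds thus differ more than the sides do, which enters the spread of every level and the SE of a fit without the round.

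Before the subunits, the identity of the samples was checked with marker genes. All 17 pan-RGC markers measured (among them Tubb3, Isl1 and Rbpms) were well above the level of the low-value filter in both groups, but their mean level was between 10.7 and 11.4 in the ipsilateral arrays, against 11.2 to 11.7 in the contralateral arrays. All 17 were lower in ipsilateral RGCs in every round, against 20.2% of all genes, with a median difference of −0.40. None was called different, a call being a 2-fold difference with an adjusted p under 0.05 in the limma fit described further on. That fit called 0% of all probe sets kept lower in ipsilateral RGCs, so the lack of a call does not set these markers apart. The 12 microglia and macrophage markers had a mean level of 8.45 to 9.31 in ipsilateral RGCs, against 4.77 to 5.78 in contralateral RGCs, with 7 of the 12 called higher. The 9 retinal progenitor markers measured had a mean level of 8.89 to 10.4 in ipsilateral RGCs, against 7.37 to 7.74 in contralateral RGCs. Of these, 2 of the 9 were called higher without a block for the round and none with it. Over the whole array, 0.244% of the probe sets kept were called higher without the block and 0.208% with it. Of the markers of cholinergic starburst amacrine cells 5 passed the low-value filter, with a median difference of 0.06, and of those of other amacrine and horizontal cells 9 passed, with 0.20. None of these was called, but some were higher in ipsilateral RGCs in every round. Mean differences were 1.11 for Megf10 and 0.99 for Tfap2b (groups not overlapping) in the first list. They were 1.34 for Gad2 and 1.26 for Prox1 in the second. Others went another way, and 1 of the 5 and 3 of the 9 had a lower mean. Chat (−0.12) and Onecut1 (−0.31) were lower in every round, and Slc18a3 (0.06) and Slc5a7 (0.01) had mixed signs. The marker shifts in this paragraph run alongside every subunit difference below, and their part in those differences was not tested. In such bulk samples, fewer cells of a type and less RNA per cell cannot be told apart. The log2 scale of the array has no 0, and Pou4f2 was not analysed here.

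Sequences upstream of the gene starts were read for the subunits that commonly assemble together, Chrnb2 with Chrna4 and Chrna3 with Chrnb4. Each is the 250 bases before the RefSeq gene start (GRCm38.p6), on the strand of the gene, with the GC box GGGCGG in capitals where it occurs on either strand (CCGCCC is its other strand). The regions are chr3:89764633-89764882 (− strand) for Chrnb2, chr2:181039178-181039427 (− strand) for Chrna4, chr9:55026563-55026812 (− strand) for Chrna3 and chr9:55048545-55048794 (− strand) for Chrnb4.
Chrnb2: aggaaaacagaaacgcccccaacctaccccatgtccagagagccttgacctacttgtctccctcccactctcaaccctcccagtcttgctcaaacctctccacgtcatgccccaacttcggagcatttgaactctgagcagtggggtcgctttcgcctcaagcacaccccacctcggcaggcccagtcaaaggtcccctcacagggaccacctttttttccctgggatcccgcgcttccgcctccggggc
Chrna4: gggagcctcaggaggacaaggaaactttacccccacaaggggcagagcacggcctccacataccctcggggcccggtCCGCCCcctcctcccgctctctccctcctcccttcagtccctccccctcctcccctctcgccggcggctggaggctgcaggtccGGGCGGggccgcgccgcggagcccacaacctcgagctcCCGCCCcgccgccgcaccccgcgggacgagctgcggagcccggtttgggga
Chrna3: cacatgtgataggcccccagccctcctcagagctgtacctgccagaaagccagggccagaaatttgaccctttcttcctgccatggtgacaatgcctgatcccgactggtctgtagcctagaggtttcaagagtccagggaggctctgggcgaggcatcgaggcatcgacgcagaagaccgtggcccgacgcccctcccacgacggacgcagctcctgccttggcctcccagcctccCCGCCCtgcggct
Chrnb4: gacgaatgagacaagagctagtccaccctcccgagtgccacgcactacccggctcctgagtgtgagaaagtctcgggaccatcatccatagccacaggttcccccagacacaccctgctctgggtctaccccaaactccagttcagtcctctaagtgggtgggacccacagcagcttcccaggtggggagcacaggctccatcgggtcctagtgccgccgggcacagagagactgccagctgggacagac

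The Chrna4 region was the richest in G and C (74.4%) and held 3 GC boxes, the Chrna3 region held 1 at 63.2%, and those of Chrnb2 (59.6%) and Chrnb4 (61.2%) held none. Of the 8 genes, 6 were matched in the table of start regions, with 7 regions in all because Chrna5 has a pair of starts. Both Chrna5 starts lie on the + strand of chromosome 9, and they differ in makeup. The upstream one is 40% G and C with 5 TAAT motifs and no GC box, and the other is 65.2% G and C with 4 GC boxes and no TAAT. The GC box was present in 4 of the 7 regions, against 32.7% of 32851 gene start regions of the same length. The E-box CANNTG (a palindrome, read once) was in 6 of the 7, against 66.2% of all regions, and TAAT on either strand was in 1 of the 7, against 54.9%. The median G and C content of all regions was 52.4%. A match to these letters is a description of the sequence only. Chrna6 and Chrnb3 were not matched.

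In the same annotation Chrna5, Chrna3 and Chrnb4 are neighbors on chromosome 9, and Chrnb3 and Chrna6 are neighbors on chromosome 8. Chrna5 overlaps Chrna3, and Chrnb2 on chromosome 3 overlaps Adar at its end. Which stretch of a transcript each probe set reads is not known here, so signal of overlapping genes could not be separated.

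A low-value filter set at the 20th percentile of the mean log2 intensity (4.74) removed the dimmest probe sets. Of the 18 subunit probe sets, 16 passed, including the brightest of every gene. For the comparison of ipsilateral with contralateral RGCs, limma was fitted over all 36029 probe sets kept, and calls required both a 2-fold difference and a p under 0.05 after Benjamini–Hochberg adjustment. None of the 16 was called in either direction. In that fit 0.244% of all probe sets kept were called higher and 0% lower in ipsilateral RGCs, and a fit with the round as a block (0.208% called higher) also called none of the 16. The study's own analysis used other software with the same 2-fold and Benjamini–Hochberg limits, and it listed probe sets in both directions. The lack of lower calls here is thus a result of this fit and need not hold for the cells. At an unadjusted p under 0.05 in limma, 2 of the 16 were lower without the block and 5 with it, and none of these reached 2-fold. Of all 36029 probe sets kept, 137 were lower at that p without the block and 2447 with it. With 3 arrays a group, an exact permutation test of 1 gene cannot go below p = 0.10 (0.25 when paired), and the number of arrays limits the precision.

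The direction of the differences was mostly downward in ipsilateral RGCs. Of the 16 probe sets, 12 had a lower mean and 4 a higher mean in ipsilateral RGCs. Lower values in all 3 rounds were found for 9 of the 16, against 19.7% of all probe sets kept, and none was higher in all 3. The groups did not overlap for 3 of the 16, all with the lower values in ipsilateral RGCs, against 2.03% of all probe sets kept. Taking the brightest probe set of each gene, 5 of the 8 genes were lower in every round (20.2% of 15346 genes), and 2 of the 8 had groups that did not overlap (1.98% of genes). The median difference of the 8 genes was −0.35, with −0.20, −0.35 and −0.45 in rounds 1 to 3, and that of all genes was −0.01. The pan-RGC markers, at −0.40, had a median difference as low as that of the subunits. All 17 of these markers were lower in every round, and 6 of the 17 had groups that did not overlap, with the lower values in ipsilateral RGCs.

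**Figure D1:**
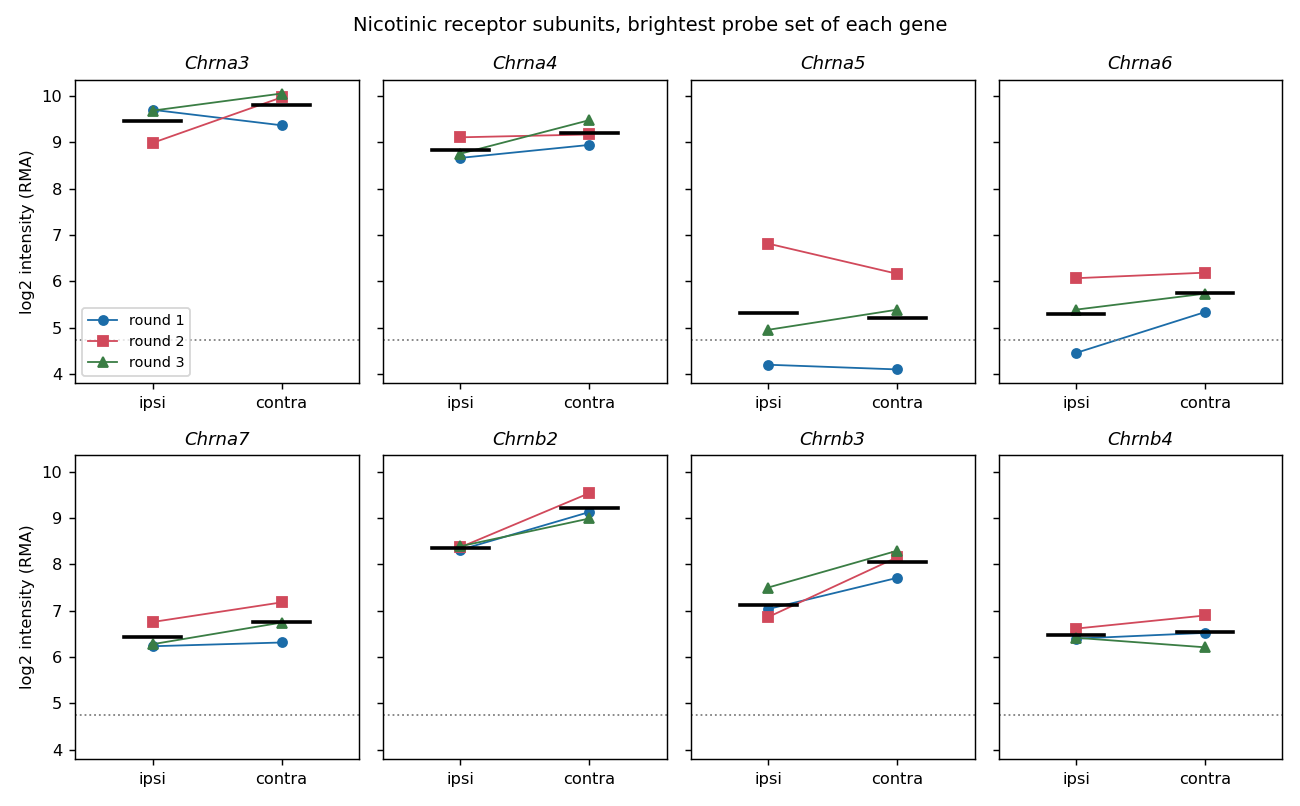
RMA log2 intensity (y axis) of the brightest probe set of each subunit gene in ipsilateral (left) and contralateral (right) RGCs, with 1 symbol and line per round, a black bar at the mean of 3 arrays, and a dotted line at the filter level of 4.74. Chrnb2 and Chrnb3 are the genes whose groups do not overlap, and heights should not be compared between panels, because probe sets differ in brightness for equal amounts of RNA.

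Chrnb2, the β subunit of most heteromeric receptors of the brain and of retinal waves, was 1 of the 2 genes whose groups did not overlap at the brightest probe set. Its brightest probe set (1436428_at) read 8.32, 8.37 and 8.39 in ipsilateral RGCs of rounds 1 to 3, against 9.13, 9.54 and 8.99 in contralateral RGCs. The 3 ipsilateral values were nearly equal (SD 0.04), the contralateral values spread more (SD 0.29), and the highest ipsilateral value was 0.60 below the lowest contralateral value. The difference was −0.86 (SE 0.39, 95% interval −1.69 to −0.03), or 1.82-fold lower, with a limma adjusted p of 1.0. With the round as a block the SE was 0.17 and the interval −1.29 to −0.44, and the adjusted p of 0.156 did not pass either. Round by round the differences were −0.82, −1.17 and −0.60.

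The other Chrnb2 probe sets did not read alike. Probe set 1441837_at had 6.27, 6.93 and 6.72 in ipsilateral RGCs, against 6.88, 7.66 and 6.99 in contralateral RGCs. It was lower in each round (difference −0.53, SE 0.41), although the groups overlapped. Probe set 1420744_at had 7.03, 7.66 and 7.02 in ipsilateral RGCs, against 7.34, 7.0 and 6.74 in contralateral RGCs, which is a difference of 0.21 (SE 0.40) with opposite signs between rounds. Averaged over its 3 probe sets, Chrnb2 differed by −0.39.

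Chrnb3, an accessory β subunit found with Chrna6 in receptors of RGC axons and dopaminergic neurons, had the largest difference of the 16 probe sets. Its only probe set (1451842_a_at) read 7.04, 6.86 and 7.50 in ipsilateral RGCs, against 7.71, 8.16 and 8.30 in contralateral RGCs. All ipsilateral values lay below all contralateral values, with a gap of 0.21 between the groups. The difference was −0.92 (SE 0.40, 95% interval −1.78 to −0.06), or 1.89-fold lower, with a limma adjusted p of 1.0. With the block the interval was −1.37 to −0.47 and the adjusted p 0.154. The differences in rounds 1 to 3 were −0.67, −1.29 and −0.80.

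Because the pan-RGC markers were also lower in ipsilateral RGCs, each subunit difference was set against the median difference of those markers in the same round. Chrnb2 (1436428_at) was then lower by a margin of −0.53, −0.91 and −0.04 in rounds 1 to 3, and Chrnb3 by −0.38, −1.03 and −0.24. At these probe sets the sign held in every round, and the margin of Chrnb2 in round 3 was close to 0. The markers themselves spread widely, with mean differences from −0.92 (Slc17a6) to −0.18 (Nefl). Slc17a6 was thus about as low as Chrnb3 and lower than Chrnb2, so these margins do not set the subunits apart from every RGC marker. The other Chrnb2 probe sets went another way, with margins of −0.32, −0.46 and 0.29 for 1441837_at and −0.02, 0.91 and 0.84 for 1420744_at. The brightest probe sets of Chrna3, Chrna4 and Chrna7 had mean margins of 0.03, 0.01 and 0.04, which is nearly no difference from the RGC markers, although those of Chrna3 ran from −0.73 to 0.63 by round. The mean margin was −0.08 for Chrna6, 0.30 for Chrnb4 and 0.47 for Chrna5, the last of these positive in every round. That Chrna5 probe set was dim, however, with 4.20 in ipsilateral and 4.10 in contralateral RGCs of round 1, under the filter level. The other Chrna5 probe set, with a mean under that level, had margins of 0.95, −0.15 and 0.29.

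Chrna3, the ligand-binding α subunit of ganglionic receptors and of early retinal waves, gave different answers by probe set. The brightest (1455931_at) read 9.71, 8.99 and 9.69 in ipsilateral RGCs, against 9.37, 9.98 and 10.06 in contralateral RGCs. Ipsilateral RGCs were higher in round 1 and lower in rounds 2 and 3, and the mean difference of −0.34 (SE 0.41) lay within the spread of the arrays. Probe set 1452010_at had 8.95, 9.49 and 9.24 in ipsilateral RGCs, against 9.21, 10.15 and 9.77 in contralateral RGCs. It was lower in each round (difference −0.48) although the groups overlapped, with a block p of 0.023 that became 0.277 after limma's adjustment over all probe sets. The third (1444368_at) had 7.15, 8.41 and 6.98 in ipsilateral RGCs, against 7.42, 7.56 and 6.54 in contralateral RGCs, with the mean 0.34 higher in ipsilateral RGCs and mixed signs.

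Chrnb4, the usual β partner of Chrna3 and its neighbor on the chromosome, had differences close to 0. Its brightest probe set (1425849_at) read 6.40, 6.61 and 6.42 in ipsilateral RGCs, against 6.52, 6.90 and 6.21 in contralateral RGCs. The groups overlapped, the difference was −0.07 and its 95% interval of −0.91 to 0.77 excluded a 2-fold change in either direction. Probe set 1457008_at had 5.25, 6.50 and 6.57 in ipsilateral RGCs, against 5.73, 6.93 and 5.60 in contralateral RGCs. Its mean difference of 0.02 came from differences of −0.48 and −0.44 in the first rounds and 0.97 in the third.

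Chrna4, the α subunit that pairs with Chrnb2 in the most common receptor of the brain, was lower in every round at 2 of its 3 probe sets. The brightest (1421203_at) read 8.67, 9.11 and 8.76 in ipsilateral RGCs, against 8.95, 9.17 and 9.48 in contralateral RGCs. The groups overlapped through the round 2 ipsilateral sample, and the difference was −0.36 (SE 0.39). Probe set 1421202_at had 7.73, 8.61 and 7.80 in ipsilateral RGCs, against 8.05, 9.11 and 8.26 in contralateral RGCs. Its differences of −0.32, −0.50 and −0.46 were the most even of the 3 probe sets of this gene, and a block p of 0.026 became 0.287 after adjustment in limma. The third (1456354_at) read 8.55, 8.66 and 7.59 in ipsilateral RGCs, against 8.17, 8.75 and 8.01 in contralateral RGCs, a difference of −0.04 with a 95% interval of −0.98 to 0.89.

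Chrna7, the subunit of homomeric receptors that bind α-bungarotoxin, was lower in ipsilateral RGCs at both probe sets and in every round. The brightest (1450299_at) had 6.23, 6.76 and 6.28 in ipsilateral RGCs, against 6.31, 7.18 and 6.75 in contralateral RGCs (difference −0.32, SE 0.41). The groups overlapped there. The other (1440681_at) had 5.34, 5.54 and 5.70 in ipsilateral RGCs, against 5.70, 5.84 and 5.86 in contralateral RGCs. It is the third probe set whose groups did not overlap, but the gap between them was only 0.0064 and the difference −0.28 (SE 0.38).

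Chrna6, which is enriched in RGCs and midbrain dopaminergic neurons, was dim on these arrays. Its kept probe set (1450426_at) read 4.45, 6.07 and 5.39 in ipsilateral RGCs, against 5.34, 6.19 and 5.73 in contralateral RGCs. Ipsilateral RGCs were lower in each round, by differences of −0.88, −0.12 and −0.35, while the rounds themselves spread further than the sides (mean difference −0.45, SE 0.47). Without ipsilateral replicate 1 the difference was −0.02, but the median of all probe sets kept was then 0.22. Its second probe set (1450427_at) was under the filter level, with 3.59, 4.59 and 5.16 in ipsilateral RGCs, against 3.39, 4.74 and 5.33 in contralateral RGCs.

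Chrna5, an accessory α subunit that does not form the binding site, varied with the round rather than the side. Its kept probe set (1427401_at) had 4.20, 6.82 and 4.95 in ipsilateral RGCs, against 4.10, 6.16 and 5.39 in contralateral RGCs. The round 2 values were the highest on both sides, as were the medians of the whole arrays. The difference was 0.11 (SE 0.65, 95% interval −1.29 to 1.5), the widest interval among the subunits. Probe set 1442035_at was under the filter level, with 3.95, 4.53 and 5.05 in ipsilateral RGCs, against 3.28, 4.94 and 5.32 in contralateral RGCs.

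**Figure D2:**
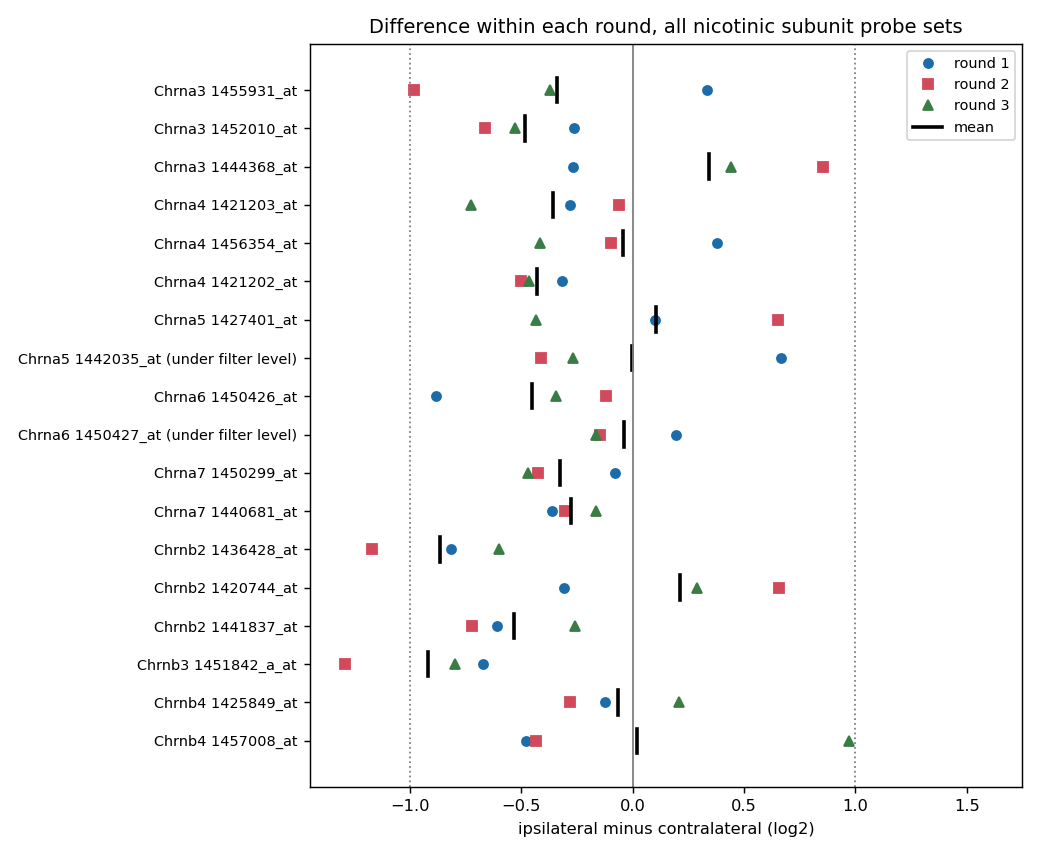
Ipsilateral minus contralateral log2 difference (x axis) within each round for all 18 subunit probe sets, with 1 symbol per round, a black bar at the mean and dotted lines at a 2-fold change. For Chrnb2 1436428_at and Chrnb3 the differences of all 3 rounds lie left of 0, while Chrnb4 1457008_at runs from −0.48 to 0.97.

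How far the data exclude larger differences depended on the fit. Without the block, the 95% intervals of 4 of the 16 probe sets excluded a 2-fold lower level in ipsilateral RGCs, and 2 of the 16 excluded a 2-fold change in both directions. With the block, 13 of the 16 excluded a 2-fold change in both directions. The SE over all probe sets kept had a median of 0.44 without the block and 0.17 with it.

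**Figure D3:**
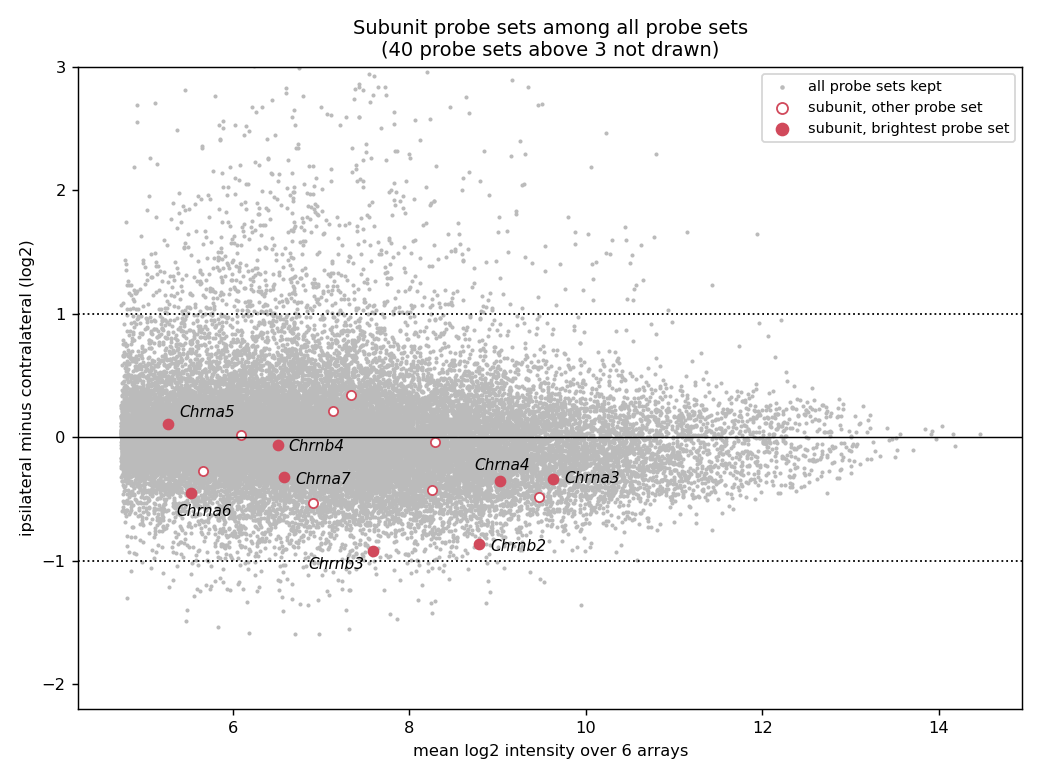
Ipsilateral minus contralateral log2 difference (y axis) against the mean log2 intensity of 6 arrays (x axis) for all 36029 probe sets kept (gray) and the 16 subunit probe sets (red, filled for the brightest of a gene), with dotted lines at a 2-fold change. Chrnb2 and Chrnb3 lie lowest among the subunits, at −0.86 and −0.92, and none of the subunits crosses the 2-fold lines.

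The 8 genes did not move as 1 block across the arrays. After each array was centred on its median, Pearson's r over the 6 arrays was 0.87 for Chrnb2 with Chrnb3 and 0.87 for Chrnb2 with Chrna7. It was 0.83 for Chrna3 with Chrnb3 and 0.71 for Chrnb2 with Chrna4. Chrna3 and Chrnb4, a usual pair, had an r of 0.53, and Chrnb3 and Chrna6 one of 0.28. Chrna5 ran against its neighbors on the chromosome, with an r of −0.80 with Chrna3 and −0.75 with Chrnb4. Its probe set was dim, with a mean of 5.27 over the 6 arrays, against 9.63 for Chrna3. The part that brightness and the centring have in these r values was not tested. These values describe 6 arrays that share rounds and sides, with both group and round differences in them.

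By the same measure over all genes, the 5 genes most like Chrnb3 were Bmper, Atp8a2, Cd276, Ppp2r2b and Mzt1, with r of 0.993 to 0.996. All genes named here were picked as the highest r among 15346 genes over only 6 arrays, which by itself favors high values. Chrnb3 was picked for its large difference, so genes like it tend to be lower in ipsilateral RGCs too. Bmper, an extracellular modulator of BMP signaling, had 5.12, 4.55 and 5.54 in ipsilateral RGCs, against 6.33, 6.51 and 6.98 in contralateral RGCs. Its difference of −1.54 was larger than that of Chrnb3, and its limma adjusted p was 0.367. The study's own analysis listed Bmper among the genes high in contralateral RGCs. The 5 most like Chrna3 were Jpt1, Fbxo44, Terf2ip, Nhsl1 and Prxl2a (r 0.991 to 0.995, differences −0.39 to −0.20). The 5 most like Chrna4 were Cacna1g, Rnf214, Plaa, Myl12b and Ostm1 (r 0.983 to 0.991, differences −0.56 to −0.20).

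The remaining genes of acetylcholine signaling were read from 4 lists. None of their 51 probe sets kept was called in either direction by limma, with or without the block. In the limma fit without the block, 1 of the 51, that of Lypd6b, had an unadjusted p under 0.05. With the block more of them were under that limit. Among these were Slc44a1, Bche and Ly6e, higher in ipsilateral RGCs, and Lypd6b and Apc, lower in ipsilateral RGCs. The study's own analysis differed in its calls, since it listed Slc44a1 as higher and a probe set of Vsnl1, from the last list, as lower in ipsilateral RGCs. Of the muscle-type and other nicotinic subunits, 5 of 8 had a brightest probe set above the filter level, with a median difference of −0.09. Chrna1, Chrnd and Chrng, subunits of the muscle receptor, differed by −0.17, −0.17 and −0.09, and Chrna9, a subunit of hair cell receptors, by 0.14. The low end of the list, Chrna2 and Chrnb1, was under the filter level, and Chrna10 was not analysed here. The muscarinic receptors, which act through G proteins, had a median difference of −0.03, with −0.31 for Chrm3, −0.03 for Chrm4 and 0.08 for Chrm1. Chrm2 and Chrm5 were not analysed here.

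Of the 8 genes for acetylcholine synthesis, transport and breakdown, 3 had a lower and 5 a higher mean in ipsilateral RGCs, with a median difference of 0.01. The choline transporter Slc44a1 read 6.62, 7.70 and 7.80 in ipsilateral RGCs, against 5.90, 6.92 and 6.78 in contralateral RGCs. It was higher in each round (difference 0.84, SE 0.46), although the groups overlapped. Butyrylcholinesterase (Bche) differed by 0.66, acetylcholinesterase (Ache) by −0.42 and its membrane anchor Prima1 by −0.18. Chat, which makes acetylcholine, and Slc18a3, which loads it into vesicles, averaged 4.68 and 4.83 in ipsilateral RGCs, against 4.80 and 4.77 in contralateral RGCs. Both means were close to the filter level of 4.74 on each side, and these genes are also the defining markers of starburst cells.

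The chaperones, Ly6-type modulators and scaffolds of nicotinic receptors were mostly lower in ipsilateral RGCs. Of 14 genes, 11 had a lower mean and 8 were lower in every round (20.2% of all genes), with a median difference of −0.23, but none was called. Lypd6b, a Ly6-type protein that modulates nicotinic receptors, read 6.95, 7.66 and 7.21 in ipsilateral RGCs, against 7.91, 8.34 and 8.47 in contralateral RGCs. Its groups did not overlap, with a difference of −0.97 (SE 0.40, 95% interval −1.83 to −0.10). The limma adjusted p was 1.0, or 0.131 with the block. Its relative Lypd6 differed by −0.54 and the scaffold Apc by −0.48, whereas the Ly6-type protein Ly6e differed by 0.49. The groups of Apc did not overlap either. That made 2 of the 14 genes with groups apart and lower in ipsilateral RGCs, against 1.98% of all genes.

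**Figure D4:**
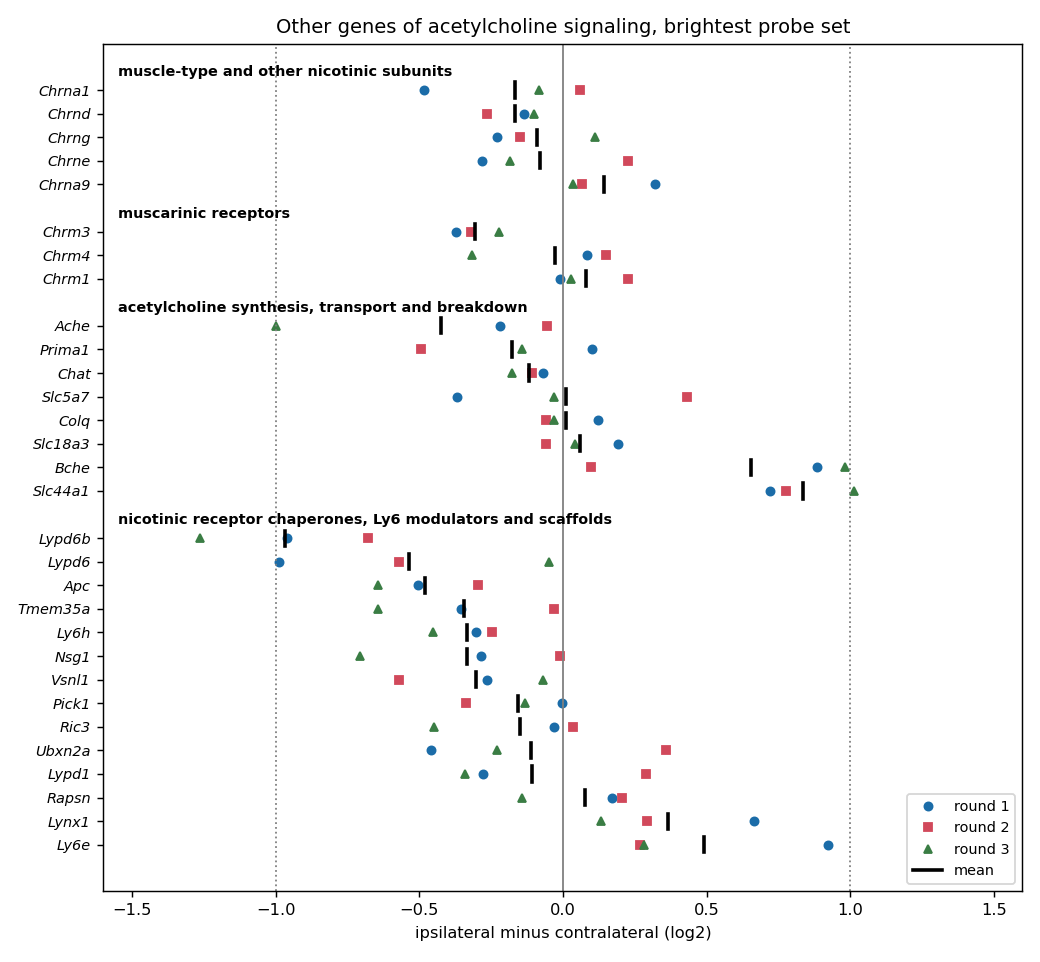
Ipsilateral minus contralateral log2 difference (x axis) within each round for the other genes of acetylcholine signaling above the filter level, grouped by list and ordered by their mean (black bar), with dotted lines at a 2-fold change. Lypd6b lies lowest with a mean of −0.97 and Slc44a1 highest with 0.84.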

How the data were processed

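Expression was measured on 6 Affymetrix mouse genome arrays, 3 of ipsilateral and 3 of contralateral RGCs. Ovation Pico WTA amplified cDNA was hybridized by the study. The deposited log2 values were made by the authors in Affymetrix Expression Console 1.1. RMA subtracts background, normalizes between arrays and gives 1 value per probe set. The array medians still differed by round, from 5.80 to 6.70. Whether all rounds were normalized together is not given in the sources used here. A shift shared by most genes can be lost in normalization.

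The table held 45101 probe sets, of which 64 were controls and not used. The annotation names 1 gene for 34945 of the rest, several for 932 and none for 9160. Of the 34945, 34741 were found in the RefSeq gene table by identifier. Probe sets below the 20th percentile of the mean log2 value (4.74) were removed. The remaining 36029 were fitted with limma 3.58.1 in R 4.3.3 (lmFit, eBayes, no block), since the methods name a 2-fold change and Benjamini–Hochberg p but no paired test. The script was tested on simulated data. The brightest probe set, that with the highest mean, stands for a gene.

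Replicate numbers in the labels pair the arrays, since the paired samples of a round were prepared together. As a check, deviations from the group means correlated at 0.511, 0.541 and 0.612 across probe sets for arrays with the same number, and at −0.353 to −0.208 for arrays with different numbers. Deviations from a group mean cancel out within the group. Positive values for the same number therefore make the others negative on average, and the negative values add no separate check. The fit with the replicate block was an alternative, as were no filter, the 50th percentile as filter, a second quantile normalization, median centring, intensity trend with robust estimation, array weights, averaging the probe sets of a gene and leaving out each array. Centring on the pan-RGC markers and gene-by-gene array weights were added after the data were seen.

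The subunits and gene lists were chosen with earlier results of these data known. Named were all subunit probe sets, the 5 genes most like the subunits with the highest mean (Chrna3, Chrna4) or the largest difference (Chrnb3), and of each pathway list up to 4 genes with the largest difference. Bmper is given in full as the gene most like Chrnb3. Chat and Slc18a3 were named after their values were seen.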

Additional observations from a re-analysis of the deposited data

How the results depend on the processing

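No subunit probe set was called under any alternative run. Under array weights, whose REML estimate did not converge, Chrnb3 had an adjusted p of 0.0346 at a difference of −0.83, under 2-fold. Over the alternatives the limma adjusted p ran between 0.0346 and 1.0 for Chrnb3 and between 0.0827 and 1.0 for Chrnb2 1436428_at. The replicate block changed no call of a subunit and gave 75 probe sets called higher on the whole array, against 88 without it. Chrnb2 1436428_at (−0.98 to −0.70) and Chrnb3 (−1.10 to −0.79) stayed lower in ipsilateral RGCs without any single array, and with pan-RGC centring, at −0.43 and −0.49.

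Pan-RGC centring moved the median of all probe sets to 0.41. Under it the difference reversed for Chrna3 1455931_at (0.091), Chrna4 1421203_at (0.075), 1456354_at (0.39) and 1421202_at (0.0033), Chrna7 1450299_at (0.11) and 1440681_at (0.15) and Chrnb4 1425849_at (0.36), and the median of the 8 genes became 0.083. Chrna5 1427401_at reversed under quantile normalization (−0.0026), array weights (−0.33) and gene-by-gene weights (−0.068). Chrnb4 1425849_at reversed under array weights (0.14) and gene-by-gene weights (0.031), and 1457008_at under median centring (−0.025). Pan-RGC centring and median centring each subtract 1 value from every probe set of an array, so all differences move by the same amount. Why signs reversed under the other alternatives was not tested. Leaving out 1 array reversed Chrna3 1444368_at (−0.11 to 0.61), Chrna4 1456354_at (−0.24 to 0.29), Chrna5 1427401_at (−0.64 to 0.67), Chrnb4 1425849_at (−0.23 to 0.11) and 1457008_at (−0.22 to 0.45). Without reversal, it moved Chrna6 1450426_at (−0.83 to −0.02, nearest 0 without ipsilateral replicate 1), Chrna3 1455931_at (−0.55 to −0.10, without ipsilateral replicate 2) and 1452010_at (−0.73 to −0.26, without contralateral replicate 2), Chrna4 1421202_at (−0.71 to −0.11) and Chrna7 1450299_at (−0.54 to −0.11, both without contralateral replicate 2), as well as Chrna4 1421203_at (−0.49 to −0.22) and Chrnb2 1441837_at (−0.68 to −0.29) and 1420744_at (0.0024 to 0.37). The median of the 8 genes ran from −0.57 to −0.24, with −0.57 without ipsilateral replicate 2 and −0.55 without contralateral replicate 1. The rounds differ in level, so leaving out 1 array also moved the median of all probe sets kept. That median was −0.19 and −0.25 in the same fits, and 0.22 without ipsilateral replicate 1 and 0.15 without contralateral replicate 2. The ranges above include these shifts.

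The count called higher, 88, became 179 with trend and robust estimation, 1001 with array weights, 261 with gene-by-gene weights and 336 with pan-RGC centring. It ran from 53 to 220 when 1 array was left out, reaching 220 when ipsilateral array 1 was dropped, 53 when ipsilateral array 3 was and 56 when contralateral array 3 was. The count called lower, 0 (86 at 2-fold and an unadjusted p under 0.05 in limma), became 148 with array weights and 3 with gene-by-gene weights. These fits leave 2 arrays in 1 group when an array is left out. The filter at the 50th percentile gave no value for Chrna5, Chrna6, Chrna7 1440681_at and Chrnb4 1457008_at. Dim probe sets, Chrna5 and Chrna6 in particular, limit what can be read.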
